A study of Mus musculus with 8 samples.

Results

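Somatostatin, its sister peptide cortistatin and 4 of their receptors were followed in ribosome-bound RNA enriched for that of hypocretin neurons. Their genes, Sst, Cort, Sstr1, Sstr2, Sstr3 and Sstr4, were taken through every probe set (the group of probes that reads a transcript on the array) whose single gene symbol in the platform annotation was one of them. This gave 8 probe sets for 6 genes, of 45037 probe sets for 18193 named genes. The mice were of the line Hcrt JD218, on a strain background labelled mixed Fvb and c57/bl6j, and carried a bacterial artificial chromosome transgene for translating ribosome affinity purification, in which the ribosomes of a chosen cell type are tagged and pulled down with their RNA. Each preparation pooled the dissected diencephalon, thalamus with hypothalamus, of 5 male and female adults at 6 to 12 weeks of age. The 4 immunoprecipitates held RNA bound to the tagged ribosomes, and the 4 unbound fractions of the same preparations stood for RNA of the whole tissue. All 8 samples carried the transgene, and no precipitate from mice without it was used here. The cells that make the tagged ribosomes are those in which the Hcrt transgene is active.

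Somatostatin is a cyclic neuropeptide made by GABAergic interneurons of the forebrain and by hypothalamic neurons that restrain growth hormone release from the pituitary. Cortistatin, from the gene Cort, shares the core of its receptor-binding ring. Their receptors couple to inhibitory G proteins, which lower cyclic AMP and open inwardly rectifying potassium channels, so that the peptides quiet the cells that carry them. Sst is also a textbook target of the transcription factor CREB, which binds a cyclic AMP response element in its promoter.

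The bases upstream of the start site are shown for the 4 genes that gave a measurable change, since a CREB element is the best-known control of Sst. RefSeq's promoter windows (GRCm38.p6) covered 5 of the 6 genes, Sstr1 being the other. The 250 bases before the start are printed, for Sst at chr16:23890845-23891094 (minus strand), Sstr2 at chr11:113619077-113619326 (plus strand), Sstr3 at chr15:78544346-78544595 (minus strand, the first of 2 listed starts) and Sstr4 at chr2:148395127-148395376 (plus strand). Capitals mark TGACGTCA, the full element, or, in a promoter without it, its core TGACG.
Sst: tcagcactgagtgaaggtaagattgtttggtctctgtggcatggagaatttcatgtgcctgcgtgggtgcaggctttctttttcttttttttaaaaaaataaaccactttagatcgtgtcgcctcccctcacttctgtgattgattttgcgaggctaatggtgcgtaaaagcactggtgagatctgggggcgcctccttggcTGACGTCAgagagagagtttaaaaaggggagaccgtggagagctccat
Sstr2: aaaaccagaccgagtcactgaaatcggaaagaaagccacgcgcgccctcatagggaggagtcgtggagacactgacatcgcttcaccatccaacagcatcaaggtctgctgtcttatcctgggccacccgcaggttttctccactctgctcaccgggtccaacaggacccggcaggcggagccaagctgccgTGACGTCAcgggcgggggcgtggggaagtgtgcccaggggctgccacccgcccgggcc
Sstr3: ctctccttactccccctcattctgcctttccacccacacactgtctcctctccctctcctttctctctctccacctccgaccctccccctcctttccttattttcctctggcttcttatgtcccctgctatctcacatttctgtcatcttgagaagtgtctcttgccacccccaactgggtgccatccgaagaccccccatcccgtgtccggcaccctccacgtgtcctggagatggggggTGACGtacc
Sstr4: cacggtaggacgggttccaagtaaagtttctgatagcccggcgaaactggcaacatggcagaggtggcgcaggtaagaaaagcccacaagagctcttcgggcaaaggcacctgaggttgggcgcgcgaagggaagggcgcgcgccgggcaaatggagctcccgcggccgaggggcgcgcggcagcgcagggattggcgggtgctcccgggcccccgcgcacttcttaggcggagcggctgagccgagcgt

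The full element TGACGTCA, which reads the same on both strands, lay 48 to 41 bases before the start of Sst and 58 to 51 bases before that of Sstr2. It was present in 508 of 32851 RefSeq promoter windows of this length, or 1.55%. The core TGACG, searched on both strands and contained in the full element, stood alone 9 to 5 bases before the first Sstr3 start, and on the opposite strand 18 to 14 bases before the start of Cort. It was present in 17.8% of all windows. Neither motif occurred in the Sstr4 window or at the second Sstr3 start. The GC box GGGCGG, found in 32.7% of windows, occurred 2 times before Sstr2, and TATAAA, found in 12.4%, before none of the 5 genes. These matches describe letters in the windows.

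The arrays gave usable signal for somatostatin and 3 receptors and none above the minimum for cortistatin and Sstr1. Values were taken as log2 from their range. A probe set was tested if its linear value reached 50 (log2 value 5.64) on at least 4 of the 8 arrays. This minimum was reached by 33.6% to 34.8% of probe sets in the immunoprecipitates, against 40.5% to 40.9% in the unbound fractions, and the number of arrays limits the precision. A change was called at a limma adjusted p under 0.05 and at least 2-fold. By this rule 45.1% of 17865 tested probe sets were lower and 4.88% higher in the immunoprecipitate, with a median log2 fold change of -0.87. Hcrt, the gene whose cells were targeted, read 15.10, 15.39, 15.43 and 15.50 in the immunoprecipitates, against 9.77, 10.10, 10.40 and 11.06 in the unbound fractions, a log2 fold change of 5.02 ± 0.25 (SE, limma adjusted p = 6.5e-07).

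Of the 8 somatostatin family probe sets 4 were tested, and each was lower in the immunoprecipitate. The Sst and Sstr3 probe sets reached the minimum on all 8 arrays. Those of Sstr2 and Sstr4 reached it on the 4 unbound arrays alone, so they could have been tested only through a high unbound level, and the count of 4 is not evidence for the family. All 4 were called lower, as were 45.1% of all tested probe sets. Their groups did not overlap, as was so in this direction for 50.1% of all tested probe sets. Only Sstr4 was called when the arrays were quantile normalized, and Sstr2 and Sstr4 when each array was centred on its median. The fractions differ in cell type as well as in ribosome binding, and fewer cells of a type cannot be told apart from less RNA per cell.

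Sst, the precursor gene of somatostatin, kept a clear signal in the immunoprecipitate, which also held RNA of other cells. Which cells gave that signal was not tested. The probe set 1417954_at read 8.45, 9.40, 9.44 and 8.77 in immunoprecipitates 1 to 4 and 9.62, 11.69, 11.60 and 10.61 in the matching unbound fractions. The groups did not overlap, but the highest immunoprecipitate lay close under the lowest unbound value, that of replicate 1. Means were 9.01 ± 0.49 and 10.88 ± 0.97 (SD, n = 4 each), and Sst fell 3.65-fold, a log2 fold change of -1.87 ± 0.45 (SE, limma adjusted p = 0.0047). Within preparations it was 2.26-, 4.90-, 4.47- and 3.58-fold lower, so every pair went the same way. Among all tested probe sets 23.4% had a more negative change. After median centring the log2 fold change of Sst was -0.94 (limma adjusted p = 0.094), and after quantile normalization -1.13 (limma adjusted p = 0.063), so the call was lost on both scales.

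Cort, which encodes cortistatin, was not measurable in either fraction. Its probe set 1449820_at read 2.20 on each of the 4 immunoprecipitate arrays and 2.15, 2.15, 2.17 and 2.15 on the unbound arrays. These values lie at the floor, the lowest value that each group holds (2.20 and 2.15), and the small gap between them is that between the floors of groups normalized separately. Values at the floor give no order and no fold.

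Sstr1, a receptor for both peptides, was at the floor as well. The probe set 1450527_at read 2.20 on all 4 immunoprecipitate arrays and 2.15 or 2.16 on the unbound arrays. No statement on its change is possible from these arrays.

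Sstr2, a receptor that takes part in growth hormone control, was seen in the tissue and lay under the minimum in the immunoprecipitate. The probe set 1422256_at read 6.59, 7.20, 7.36 and 7.03 in the unbound fractions and 4.88, 5.06, 5.58 and 4.42 in the immunoprecipitates. All 4 of the latter lay under 5.64. Means were 4.98 ± 0.48 and 7.05 ± 0.33 (SD, n = 4 each), immunoprecipitate first, a fitted log2 fold change of -2.06 ± 0.30 (SE, limma adjusted p = 0.00022). Because the low group lay under the minimum, the change is given as at least 2.66-fold lower on the scale used here. It was lower in 4 of 4 pairs. After quantile normalization the log2 fold change was -0.75 (limma adjusted p = 0.053), and after median centring it was -1.14 and kept its call (limma adjusted p = 0.0083).

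Sstr3, a receptor that neurons place on their primary cilium, was read by probe sets that disagreed. The set 1441603_at, designed from an expressed sequence tag, read 5.98, 6.25, 5.96 and 6.71 in the immunoprecipitates, against 6.90, 7.49, 8.003 and 7.93 in the unbound fractions. The groups did not overlap, with means of 6.22 ± 0.35 and 7.58 ± 0.51 (SD, n = 4 each). It fell 2.56-fold, a log2 fold change of -1.36 ± 0.31 (SE, limma adjusted p = 0.0035), and by 1.89-, 2.37-, 4.13- and 2.34-fold within the pairs. Of all tested probe sets 35.4% had a more negative change. The call was lost after median centring (-0.43, limma adjusted p = 0.25) and quantile normalization (-0.19, limma adjusted p = 0.64). The set 1450577_at, designed from a RefSeq transcript record, stayed between 2.22 and 2.47 on all 8 arrays.

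Sstr4, the last of the receptors measured, was seen in the tissue and lay under the minimum in the immunoprecipitate. The set 1457440_at, also designed from an expressed sequence tag, read 7.34, 8.77, 8.95 and 7.11 in the unbound fractions, where replicates 2 and 3 stood above 1 and 4. In the immunoprecipitates it read 4.78, 4.69, 4.96 and 3.74, all under the minimum. Means were 4.54 ± 0.55 and 8.04 ± 0.95 (SD, n = 4 each), a fitted log2 fold change of -3.50 ± 0.47 (SE, limma adjusted p = 0.00014). On the scale used here the gene was at least 5.31-fold lower. The call held after median centring (-2.58, limma adjusted p = 0.0012) and quantile normalization (-2.26, limma adjusted p = 0.0033). The RefSeq-based set 1422281_at lay at the floor, at 2.20 or 2.21 in the immunoprecipitates, against 2.15 in the unbound fractions. For Sstr3 and Sstr4 the results therefore rest on 1 probe set each, and where those probes lie relative to the transcripts was not examined here.

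**Figure D1:**
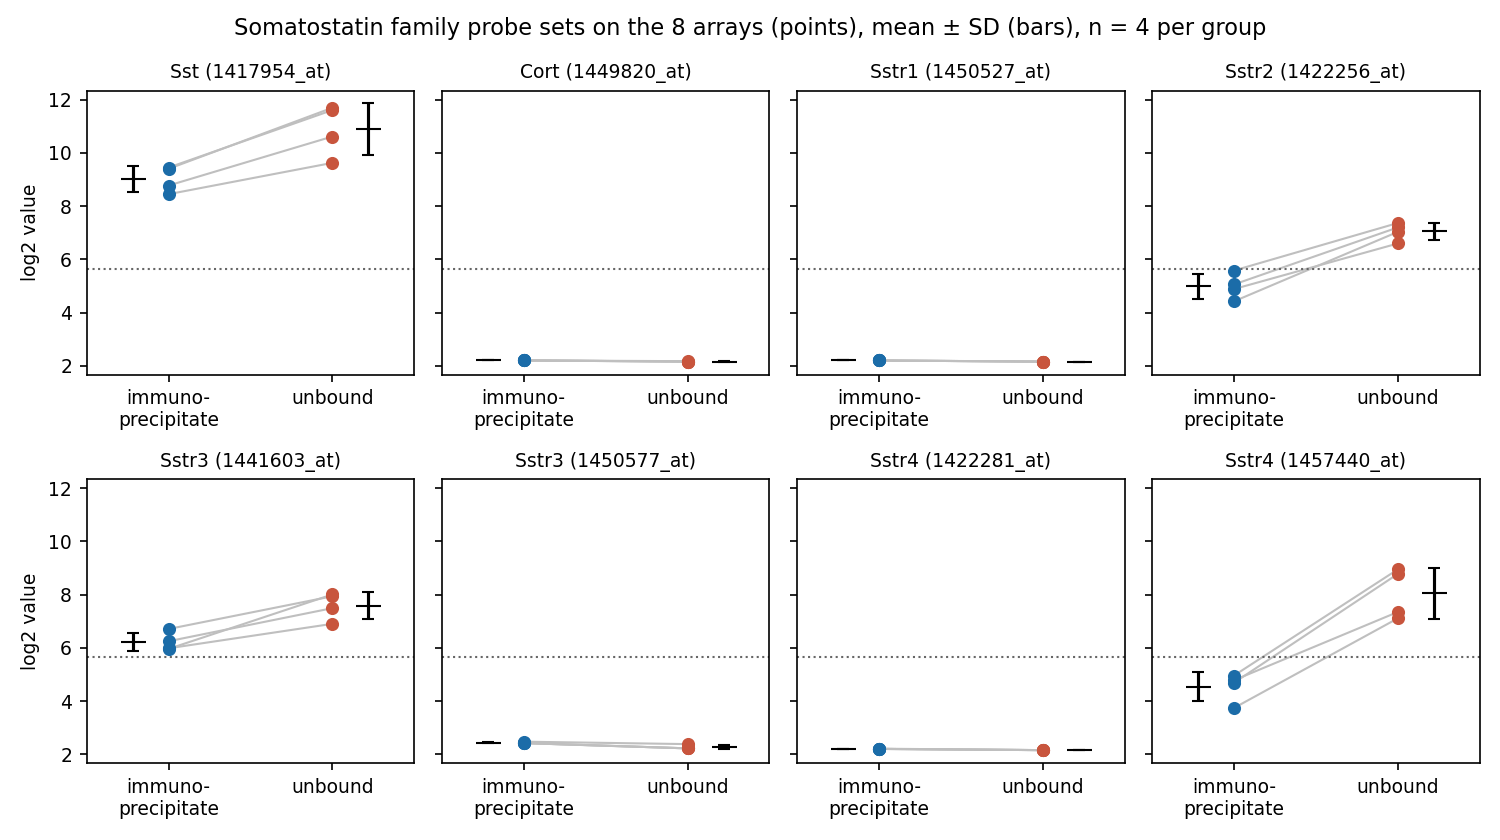
Log2 values of the 8 somatostatin family probe sets in the 4 immunoprecipitates (blue) and 4 unbound fractions (red), with lines joining fractions of 1 preparation, bars for mean ± SD and a dotted line at the minimum of 5.64. Sst and 1 Sstr3 set lie above the line on all arrays, Sstr2 and 1 Sstr4 set on the unbound arrays alone, and the other 4 sets near 2 on every array.

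The scale that joins the groups decided how many of these calls stood, because the authors normalized each group on its own. Shifted on 18 hybridisation controls, as used above, the members were called lower in 4 of 4 cases, against 45.1% of all tested probe sets. At a 4-fold threshold 2 of 4 were called, against 20.8%. With median centring 2 of 4 were called, against 21.2% of all tested probe sets, and with quantile normalization 1 of 4, against 20.9%. On 24 poly-A controls, a scale that moves the median of all probe sets by -1.97, all 4 were called, as were 94.2% of all tested probe sets. The direction was the same on each of these scales for Sst, Sstr2, Sstr3 and Sstr4.

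**Figure D2:**
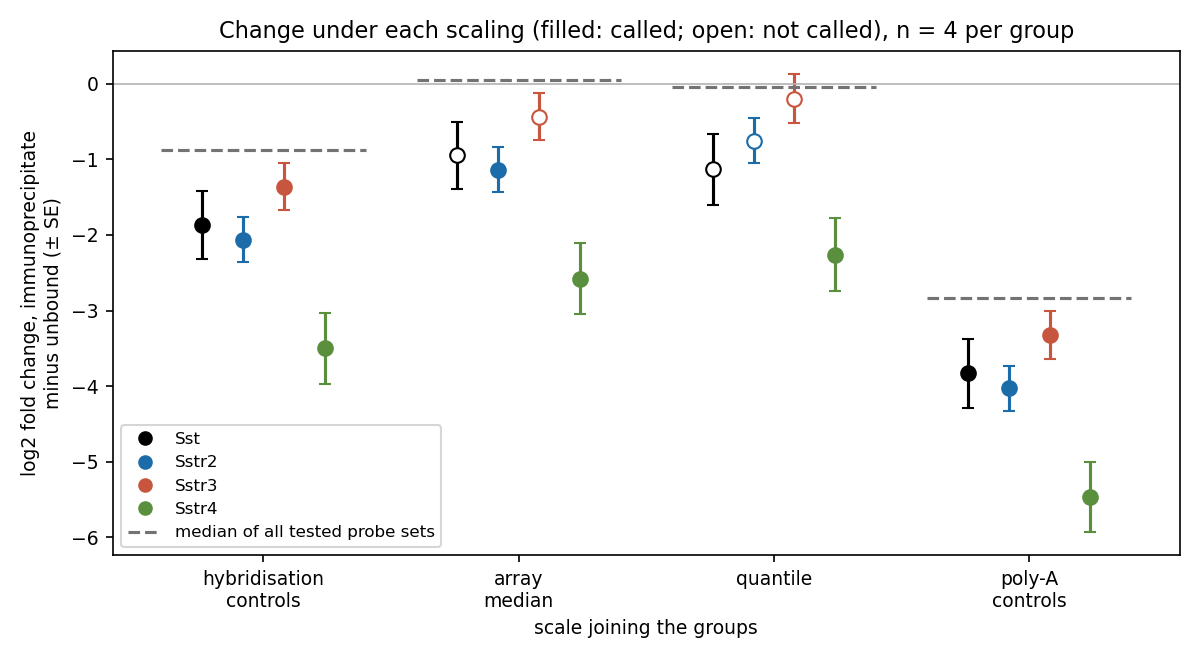
Log2 fold change ± SE (immunoprecipitate minus unbound, n = 4 each) of Sst, Sstr2, Sstr3 and Sstr4 on 4 scales, with filled points where the change was called and a dashed line at the median of all tested probe sets. Sstr4 runs from -5.47 to -2.26 and stays filled throughout, while Sstr3 reaches -0.19 after quantile normalization.

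Whether the members changed unequally was asked within arrays, where a constant shift between the groups cancels. For each of 6 pairs of members the log2 values on 1 array were subtracted, and the differences were compared between the groups by a two-sided exact permutation test, whose smallest p here is 0.0286. Sst minus Sstr4 was 3.66, 4.71, 4.49 and 5.03 in the immunoprecipitates, against 2.28, 2.92, 2.66 and 3.50 in the unbound fractions. As measured, the difference was 1.63 ± 0.39 higher in the immunoprecipitates on the log2 scale (SE), with no overlap (exact permutation p = 0.0286, adjusted p = 0.0571). Sstr2 minus Sstr4 was higher by 1.44 ± 0.39 (exact permutation p = 0.0286, adjusted p = 0.0571), and Sstr3 minus Sstr4 by 2.14 ± 0.64 (exact permutation p = 0.0286, adjusted p = 0.0571). None of the 3 passed 0.05 after adjustment over the 6 pairs. All 3 stood at the smallest p, and with only 3 of 6 pairs there none can pass, so the adjustment could not decide. All 3 also rest on Sstr4 readings under the minimum, so neither their sizes nor their tests show that Sstr4 changed more than another member. The other pairs overlapped, with Sst minus Sstr3 at -0.51 ± 0.49 (exact permutation p = 0.343, adjusted p = 0.411), Sstr2 minus Sstr3 at -0.70 ± 0.42 (exact permutation p = 0.114, adjusted p = 0.171) and Sst minus Sstr2 at 0.19 ± 0.38 (exact permutation p = 0.629, adjusted p = 0.629).

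With values under the minimum raised to it, a step chosen after seeing the data, Sst minus Sstr4 was 0.54 (exact permutation p = 0.171), Sstr2 minus Sstr4 1.00 (exact permutation p = 0.0286) and Sstr3 minus Sstr4 1.05 (exact permutation p = 0.114), with adjusted p of 0.343, 0.171 and 0.343. Sstr2 and Sstr4 both lay under the minimum on every immunoprecipitate array, where raising made them equal. The value for that pair therefore reflects their unbound levels alone and cannot show an unequal change. Sst minus Sstr2 was -0.45 (exact permutation p = 0.343, adjusted p = 0.411) and Sstr2 minus Sstr3 -0.05 (exact permutation p = 0.743, adjusted p = 0.743). Sst minus Sstr3, the pair read above the minimum on all 8 arrays, stayed at -0.51, and an unequal change was not detectable for any pair on this basis.

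Somatostatin cells are largely GABAergic, so each member was also set against the mean of 5 tested GABAergic markers on the same array, the GABA-synthesising enzymes Gad1 and Gad2, the vesicular transporter Slc32a1 and the homeobox factors Dlx1 and Dlx2. All 5 markers fell, where 44.2% of all genes did, and their summed linear level ran from 4347 to 9605 in the immunoprecipitates, against 21822 to 26191 in the unbound fractions. The part of these markers in the change of Sst was not tested. Relative to their mean, Sst stood at 0.20, 1.39, 1.52 and 1.46 in the immunoprecipitates, against -0.54, 1.20, 0.95 and -0.43 in the unbound fractions. The groups overlapped, and Sst differed from the markers by 0.85 ± 0.55 on the log2 scale (SE, exact permutation p = 0.171, adjusted p = 0.229). Sst, Sstr2 and Sstr3 each moved up relative to the markers in every pair. For Sstr3 the difference was 1.35 ± 0.39 (exact permutation p = 0.0286, adjusted p = 0.114), which did not pass the adjustment over 4 members. Sstr3 alone had the smallest possible p, which among 4 members cannot pass, so the adjustment could not decide. Sstr2 and Sstr4 differed from them by 0.65 ± 0.27 (exact permutation p = 0.0857, adjusted p = 0.171) and -0.79 ± 0.55 (exact permutation p = 0.229, adjusted p = 0.229). Dlx2 lay under the minimum on all 4 immunoprecipitate arrays and Dlx1 on 2 of them. With values under the minimum raised to it, Sst differed from the markers by 0.30 (exact permutation p = 0.714, adjusted p = 0.714), Sstr2 by 0.75 (exact permutation p = 0.0286, adjusted p = 0.114), Sstr3 by 0.81 (exact permutation p = 0.0571, adjusted p = 0.114) and Sstr4 by -0.24 (exact permutation p = 0.686, adjusted p = 0.714).

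**Figure D3:**
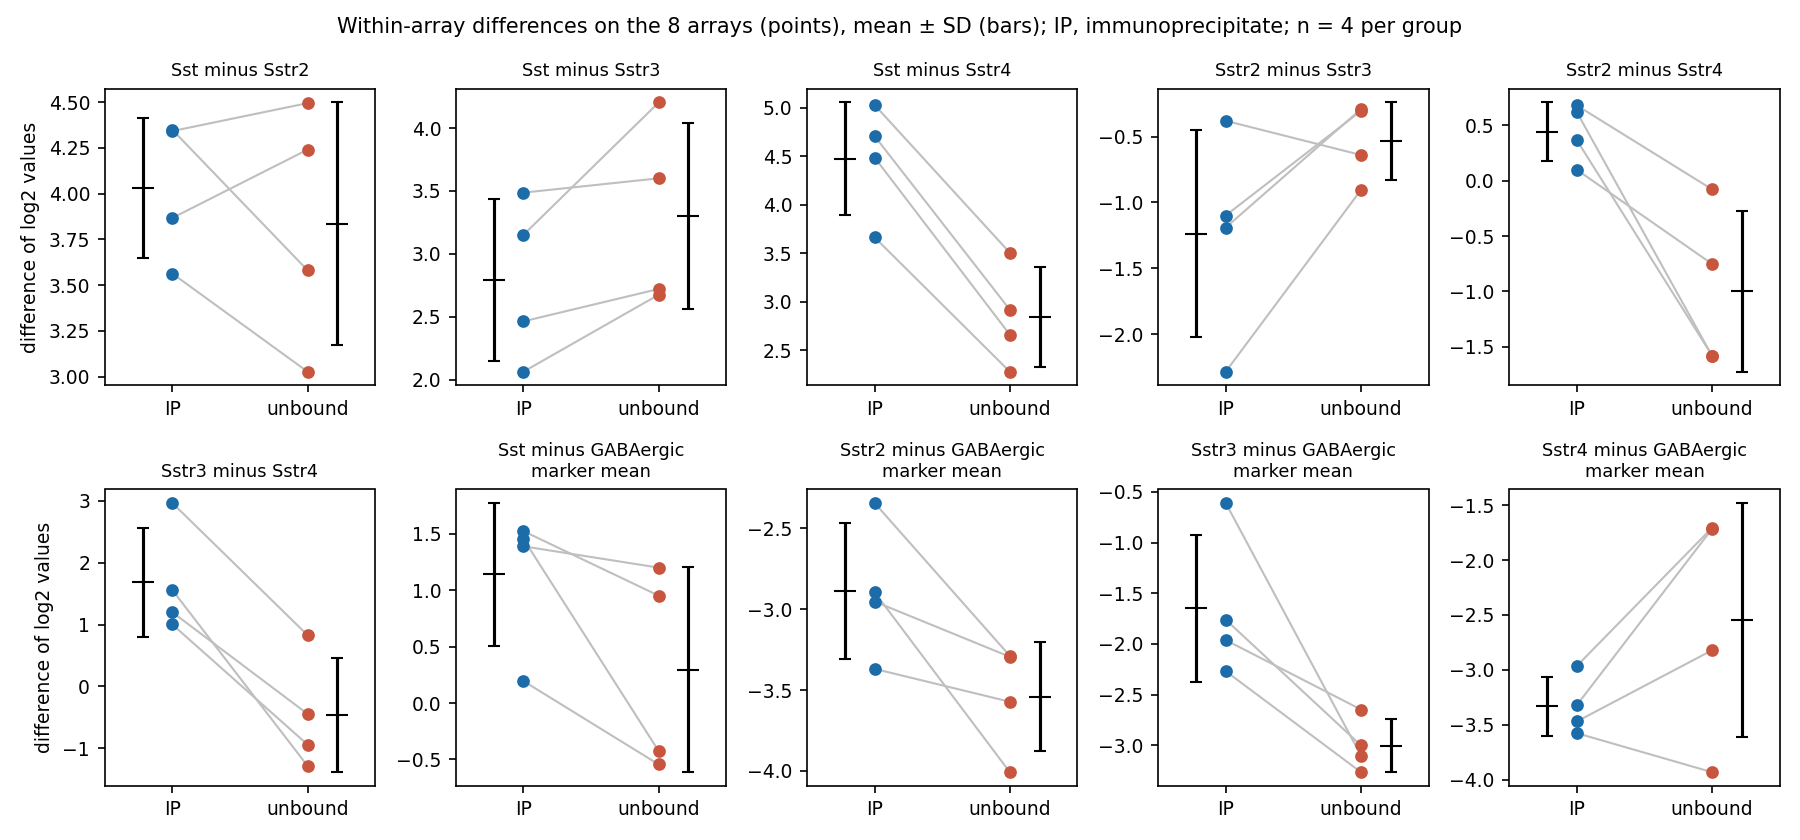
Within-array differences of log2 values for the 6 pairs of members and for each member against the mean of 5 GABAergic markers, in 4 immunoprecipitates (IP, blue) and 4 unbound fractions (red), as measured, with values under the minimum included and bars for mean ± SD. The groups are apart in the 3 differences that end in Sstr4 and in Sstr3 against the markers, and overlap in the other 6.

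Genes that carry, cut and answer the peptides were described through 9 lists, which held 74 tested genes. Of these, 38 were lower and 5 higher (51.4% and 6.76%), against 44.2% and 4.74% of all 10398 tested genes, and their median log2 fold change was -1.34 against -0.85. With median centring 24 were lower and 13 higher, against 19.6% and 20.4% of all genes. With quantile normalization 26 and 10 were, against 20.7% and 16.3%, on the poly-A controls 69 and 2, against 94.5% and 0.673%, and at a 4-fold threshold 25 and 2, against 19.0% and 1.41%. These shares of all genes also stand beside the counts of each list below. Of 20 genes named below as lower, 16 kept the call with median centring, Rgs4, Arrb1, Mpdz and Gh being lost. With quantile normalization 16 kept it too, Tulp3, Arrb1, Mpdz and Gh being lost.

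Markers of somatostatin interneurons were lower in most cases, in a list that shares Gad1, Gad2 and Slc32a1, each of them lower, with the GABAergic markers above. Of 12 tested, 9 fell and 1 rose, against 44.2% and 4.74% of all tested genes. Their median was -1.86 (-1.49 with genes under the minimum at their bound). With median centring 6 fell and 3 rose, against 19.6% and 20.4%, and on the poly-A controls 11 and 0, against 94.5% and 0.673%. Npy, the gene of neuropeptide Y, which many of these cells also make, fell 7.30-fold, from 9.65 ± 0.99 in the unbound fraction to 6.78 ± 0.66 (SD, n = 4 each, limma adjusted p = 0.00067). The synaptic adhesion protein Elfn1 was at least 2.49-fold lower and the extracellular protein Reln, at or above the minimum on 3 of 4 immunoprecipitate arrays, at least 4.54-fold. Nos1, the neuronal nitric oxide synthase, is singled out here after its values were known. It read 9.19, 9.94, 9.99 and 10.70 in the immunoprecipitates, against 8.58, 8.38, 8.20 and 9.81 in the unbound fractions, so the groups overlapped, and it was 2.32-fold higher (limma adjusted p = 0.025). Its log2 fold change was 2.14 with median centring and 2.05 with quantile normalization (limma adjusted p = 0.0013 and 0.002), and -0.75 on the poly-A controls. The call was lost without immunoprecipitate 2, 3 or 4, without unbound fraction 1, 2 or 3 and without both arrays of replicate 2 or 3.

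Factors that act on the Sst promoter or specify its cells were mostly lower too. Of 8 tested regulators 6 were lower and 0 higher, against 44.2% and 4.74% of all tested genes. Their median was -2.42 (-2.29 with bounds). With median centring 5 were lower and 1 higher, against 19.6% and 20.4%. Quantile normalization gave the same counts, against 20.7% and 16.3%. Crebbp, the coactivator that CREB recruits, fell 6.03-fold, from 10.89 ± 0.14 to 8.30 ± 0.31 (SD, n = 4 each, limma adjusted p = 1e-05). The interneuron factors Satb1 and Sox6 were 6.29-fold and at least 6.95-fold lower, with Sox6 at or above the minimum on only 1 of 4 immunoprecipitate arrays.

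Genes of neuropeptide maturation and breakdown in general went both ways. Of 10 tested, 4 fell and 2 rose, with a median of -0.56, while 2 fell and 3 rose with median centring and 8 and 2 on the poly-A controls. Pcsk1, the prohormone convertase of many neuropeptides, rose 41.0-fold, by 5.36 ± 0.32 on the log2 scale (SE, limma adjusted p = 1.3e-06). Pam, which amidates finished peptides, rose at least 2.99-fold. Both stayed called on the poly-A controls. Mme, neprilysin, a membrane peptidase that degrades somatostatin, was at least 4.03-fold lower. It read 2.67, 2.46 and 2.47 in immunoprecipitates 2 to 4 and 7.02 in immunoprecipitate 1, against 7.52 to 8.61 in the unbound fractions.

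Of 14 tested G proteins, receptor kinases, arrestins and related genes 5 fell and 1 rose, at a median of -0.85, as over all genes when rounded to 2 decimals, while 1 fell and 2 rose with median centring, 3 and 0 with quantile normalization, and on the poly-A controls 13 and 0. The receptor kinase Grk3 fell 4.20-fold, the G protein regulator Rgs4 3.47-fold and the arrestin Arrb1, which follows receptors into the cell, 3.42-fold (limma adjusted p = 4.3e-05, 1.7e-05 and 0.00085). Gnaz, an inhibitory G protein subunit also singled out by its value, was 2.19-fold higher, by 1.13 ± 0.25 on the log2 scale (SE, limma adjusted p = 0.0031). It gave 2.05 with median centring (limma adjusted p = 0.00011), 0.32 with quantile normalization and -0.84 on the poly-A controls. Its call was lost with the mean of its probe sets, without any 1 of the 4 immunoprecipitates and without both arrays of replicate 2 or 3.

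Adenylyl cyclases, which make the cyclic AMP that the receptors lower, fell in 6 of 8 cases and rose in 1, with a median of -1.91. With median centring 4 fell and 1 rose, and on the poly-A controls 7 and 0. Adcy1, Adcy2 and Adcy9 fell 6.61-, 6.49- and 6.00-fold (limma adjusted p = 0.00049, 0.00012 and 6.8e-05). Adcy8, singled out in the same way, was 2.52-fold higher, with a log2 fold change of 1.33 ± 0.34 SE (limma adjusted p = 0.0061). It gave 2.26 with median centring and 2.15 with quantile normalization (limma adjusted p = 0.00035 and 0.0007), and -0.63 on the poly-A controls. Of 3 tested channels of the receptors' potassium route 1 was lower, the subunit Kcnj3 at 4.78-fold (limma adjusted p = 0.0028). With the replicate block 2 were lower, with median centring 1 lower and 1 higher, and on the poly-A controls all 3 lower. Of 2 tested scaffold proteins Mpdz fell 2.79-fold, and none was called with median centring.

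Genes of the cilium, where Sstr3 sits, and of receptor transport into it had a median change near that of all genes. Of 14 tested 4 fell and 0 rose, at a median of -0.73 against -0.85, while on the poly-A controls all 14 fell, and with quantile normalization 3 fell and 2 rose. Bbs7 and Bbs1, subunits of the complex that carries ciliary receptors, were at least 4.79-fold and 4.28-fold lower, and Tulp3, an adaptor for the same cargo, 4.06-fold. Of 4 tested genes of the growth hormone axis, which somatostatin restrains, 2 were lower, Igf1 at least 4.80-fold and Gh at least 3.18-fold, while with median centring and quantile normalization 1 was lower and 1 higher, and 3 were lower with the replicate block. Gh spread from 3.17 to 5.96 across the immunoprecipitates and from 6.33 to 9.06 across the unbound fractions.

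**Figure D4:**
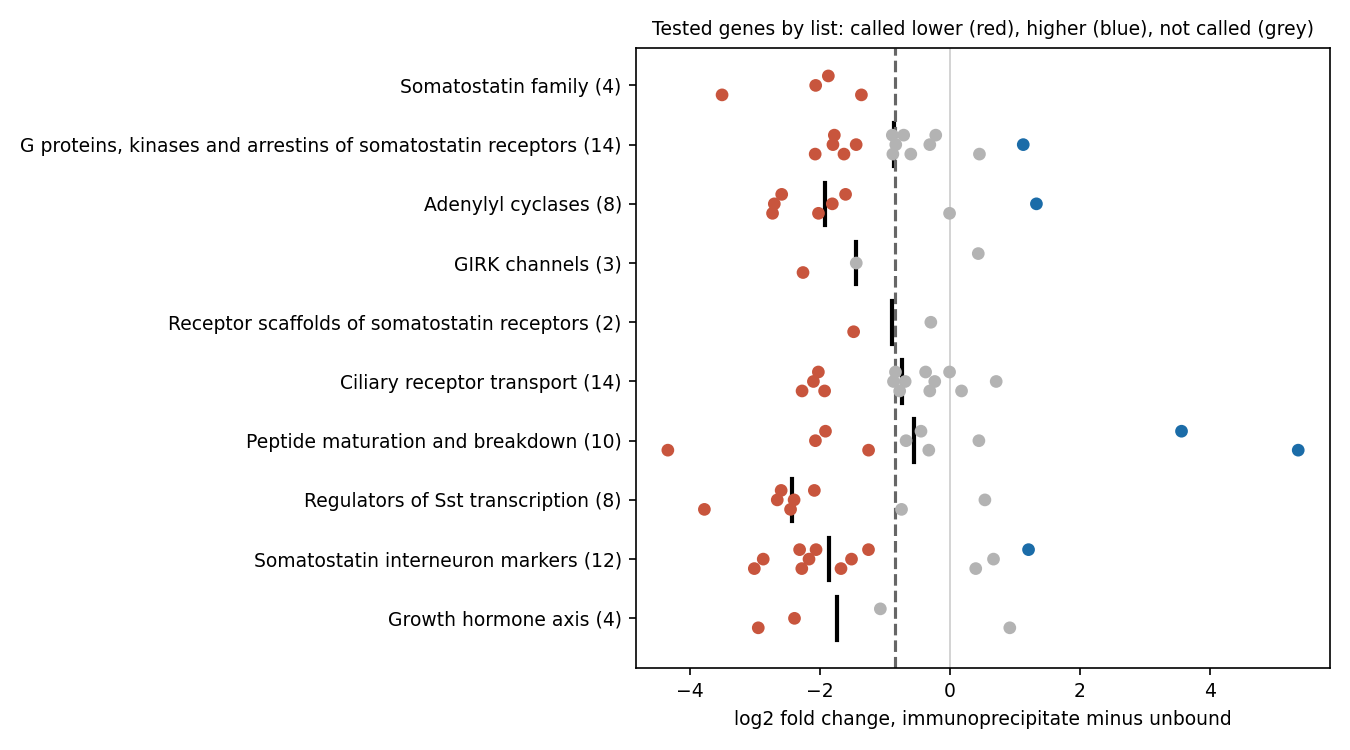
Log2 fold change (immunoprecipitate minus unbound, shifted on hybridisation controls, n = 4 each) of each tested gene, by list with the number of tested genes in brackets, with black bars at the medians of the 9 lists and a dashed line at the median of all tested genes, -0.85. The 4 somatostatin family genes lie between -3.50 and -1.36, and the points far to the right are Pcsk1 and Pam.

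Markers of other cells were still present in the immunoprecipitates, and their part in the values of Sst and the receptors was not tested. All 7 tested oligodendrocyte markers were lower, with summed linear levels of 18290 to 40053 in the immunoprecipitates, against 92436 to 106727 in the unbound fractions, and Ermn and Mobp of myelin-forming cells fell 9.51- and 7.29-fold. All 8 astrocyte markers were lower, with sums of 6068 to 16964 and 37671 to 43188, and Gfap and Sox9 were at least 13.1- and 5.51-fold lower. All 6 microglial markers were lower, with sums of 266 to 1210 and 2709 to 4691, C1qa at least 5.25-fold and Laptm5 7.25-fold. The 3 endothelial and mural markers, Rgs5 (4.48-fold) and Pdgfrb (at least 4.52-fold) among them, and the 6 thalamic markers, Tcf7l2 (10.2-fold) and Lef1 (at least 8.14-fold) among them, were lower too, with sums of 87.4 to 370 against 731 to 1042 and of 559 to 4618 against 9084 to 19268. Among the GABAergic markers Dlx1 and Dlx2 were at least 10.8- and 2.64-fold lower. Under the minimum on all 4 immunoprecipitate arrays were 2 microglial markers, 1 astrocyte, 1 endothelial, 1 thalamic and 1 GABAergic marker and no oligodendrocyte marker. All 6 hypocretin neuron markers were higher, with sums of 51874 to 74269 against 2972 to 3590, and Pdyn, the dynorphin precursor, rose 23.7-fold. Their choice drew on earlier results of these arrays. With median centring 2 of the 7 oligodendrocyte, 4 of the 6 microglial, 7 of the 8 astrocyte, 5 of the 6 thalamic, 2 of the 3 endothelial and mural and 4 of the 5 GABAergic markers were called lower, and on the poly-A controls 5 of the 6 hypocretin neuron markers were called higher. Over all tested genes 44.2% were lower and 4.74% higher on the scale used here. With median centring 19.6% were lower, and on the poly-A controls 0.673% were higher.

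Genes whose profile over the 8 arrays was most like that of Sst were sought among 10397 other tested genes, by the root mean square difference of the profiles after each was set to its own mean. They were the mitochondrial carrier Slc25a23, Spata2l, the complexin Cplx2 of synaptic vesicle release, the G protein subunit Gng7 and Lbhd2, at 0.29, 0.31, 0.31, 0.34 and 0.34 on the log2 scale, where the median gene lay at 1.01. All 5 were low in unbound fraction 1 and in immunoprecipitate 1, as Sst was. For Sstr3, chosen because its probe set had the highest mean of the receptor sets over all 8 arrays (a mean of probe signals, which does not rank the receptors' RNA levels), the closest genes were the olfactory-type G protein subunit Gnal, Zfp746, Pars2, the repair nuclease Ercc5 and Nbn, at 0.16 to 0.20, with the median gene at 0.73. These likenesses rest on 8 arrays of 4 preparations and include the difference between the fractions. They also draw on values under the minimum. Lbhd2 read 4.64 to 5.56 across the immunoprecipitates. Spata2l read 5.26 and 5.37 in immunoprecipitates 1 and 4, and Pars2 5.46 and 5.52 in 1 and 3.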

How the data were processed

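The table the authors deposited holds a log2 value for every probe set on each of 8 Affymetrix mouse arrays. The submitters' processing notes name GCRMA without a version, and per the series' design text it was run within each group. RNA was amplified over 2 cycles from 20 ng, per the labels' protocols. Samples were grouped by title, and each is a separate preparation.

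A constant per group was subtracted so that 18 hybridisation controls had equal means (as deposited they differed by 0.02), and 64 control probe sets were left out. All 17865 probe sets at or above 50 on at least 4 arrays entered limma's lmFit and eBayes (version 3.58.1, R 4.3.3, with trend and no block), with Benjamini-Hochberg adjustment over all of them, and the fit was tested on simulated data. Where a group lay under 50, values were raised to 50 for the fold, given as at least. These bounds hold on the scale of the hybridisation controls, and other scales can give smaller folds. Symbols are those of the array's platform annotation, which can be old, and a gene was read by its tested probe set with the highest mean. Single values were compared by exact permutation over arrays in Python 3.11.15. Plots were drawn with matplotlib 3.10.9.

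Members, lists and tests were chosen with earlier results of these data known. Named were all members, up to 3 called genes with the largest change per pathway list (2 per marker list), and the 5 genes most like Sst and Sstr3 in profile. Others are marked. The unbound labels name the replicate they come from. Same-numbered arrays deviated together, with correlations of 0.44, 0.33, 0.25 and 0.59. The highest with another number were -0.06, 0.26, 0.26 and -0.10, so array 3 deviated about as much with another preparation as with its own. The pairing rests on the labels. Alternatives were other scalings, filters, thresholds, probe set rules, the replicate block and leaving out arrays.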

Additional observations from a re-analysis of the deposited data

Results flagged for a closer look

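Among 91 groups of 4 arrays examined for the tested members and the genes named by rule, leaving out groups under the minimum on all 4 arrays, 6 held 1 array that stood apart from the other 3 by most of the group's range (Dixon's test at its 95% critical value). Chance gives about 1 in 20. None of them belonged to Sst, Sstr2, Sstr3 or Sstr4. Immunoprecipitate 4 read 8.95 for Arrb1, where the others lay between 8.24 and 8.34, and unbound fraction 4 of the same preparation read 11.13, where the others lay between 9.83 and 9.98. For Kcnj3 immunoprecipitate 4 read 6.89, under the other values of 8.38 to 8.67. For Bbs7 unbound fraction 4 read 8.43, above 8.19 to 8.21. For Mme immunoprecipitate 1 read 7.02, above 2.46 to 2.67. For Tcf7l2 unbound fraction 1 read 12.39, above 11.23 to 11.27.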

How the results depend on the processing

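Over up to 23 alternatives Sst, Sstr2, Sstr3 and Sstr4 kept their direction, and Sstr4 kept its call in all 23. A 4-fold threshold left 2 of the 4 members called, with Sst (-1.87) and Sstr3 (-1.36) under it. Median centring left 2, with Sst at -0.94 and Sstr3 at -0.43 on the log2 scale. Quantile normalization left 1, with Sst at -1.13, Sstr2 at -0.75 and Sstr3 at -0.19. With a minimum of 100 Sstr2 was not tested. Without any 1 array or preparation all 4 stayed called, with ranges of -2.29 to -1.60 for Sst, -2.26 to -1.87 for Sstr2, -1.59 to -1.13 for Sstr3 and -3.81 to -3.20 for Sstr4. The replicate block left the values at -1.87, -2.06, -1.36 and -3.50 and changed no call of a member, with limma adjusted p of 0.00013, 0.00016, 0.0017 and 4.1e-05.

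Of the 74 tested pathway genes 38 were lower, and 25 with a 4-fold threshold, 69 on the poly-A controls and 24 with median centring. The 5 higher became 2 with a 4-fold threshold, 13 with median centring, 8 with no fold threshold, 2 on the poly-A controls, 10 with quantile normalization and 3 to 6 without single arrays or preparations, with 3 without immunoprecipitate 3 or 4 or without both arrays of replicate 2 or 3. Sst minus Sstr2, which was not significant, turned to -0.38 with quantile normalization and -0.45 with values under the minimum raised to it. With pairs of fractions or 7 arrays the exact tests cannot reach 0.05 (smallest p 0.125 and 0.0571), so these gave values only. Cort and Sstr1 are limited by signal over background.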
